A study of Homo sapiens with 6 samples.

Results

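The 33 genes described here are targets that hypoxia-inducible factor (HIF) is known to switch on, apart from the glycolytic enzymes. They were picked by symbol with earlier results of these data known, so counts over the set describe it and are no independent support. All 33 were found among the 58676 gene IDs of the deposited table through GENCODE release 29 (GRCh38). Of them, 31 passed a filter of 0.5 RPKM in at least 3 libraries. Total RNA came from a human cell line labelled HCC, which is not named further, grown in DMEM with serum. The control group holds 3 libraries, with titles that begin with a code number that the labels do not explain. The knockdown group holds 3 libraries with the word sponge in their titles, and the series title speaks of cells treated with miR-19a. A sponge is a transcript with many binding sites that holds a microRNA back from its targets. The labels give no promoter or vector for the sponge, no dose, no time and no oxygen level, and they do not say whether replicates were separate cultures, so p-values here speak only of library-to-library spread, and that spread may be technical.

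HIF is a pair of proteins made of an oxygen-controlled alpha subunit (HIF1A or EPAS1) and a steady partner, ARNT. With oxygen present, prolyl hydroxylases of the EGLN family mark the alpha subunit, and the VHL ubiquitin ligase removes it. With little oxygen the alpha subunit persists, joins ARNT and binds the short DNA core ACGTG or GCGTG near its target genes, which change fuel use, acid balance, blood vessel growth, collagen processing and removal of mitochondria. In liver tumours such genes mark poorly perfused areas. HIF itself is controlled mainly at the protein level, which RNA sequencing does not measure.

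Values are RPKM, reads per kilobase of exon scaled to each library's total of assigned reads. Knockdown replicate 2 was left out, because its values did not follow the gene IDs: its rank correlation with the other libraries was 0.0125 to 0.0153, while those libraries correlated at 0.814 to 0.890 with each other. Assigned reads, recovered from the RPKM values, ranged from 1948940 to 19605312 per library, and control replicate 2 was the shallowest. Mitochondrial transcripts took 4.94% to 10.4% of reads in control and 7.83% to 8.30% in knockdown. The 3 gene entries of miR-19 (MIR19A, MIR19B1, MIR19B2) had 0 reads in these 5 libraries and give no check of the labels. MIR17HG, the primary transcript of MIR19A and MIR19B1 but not of MIR19B2, was at 0.811, 0.441 and 1.24 RPKM in control. In knockdown it was at 1.26 and 1.13 RPKM. The 10 hepatocyte markers all reached 1 RPKM and summed to 2035 to 2296 RPKM per control library and 2184 to 2422 per knockdown library, with 2 of 10 beyond the highest control in both and 1 below the lowest. The 6 fibroblast markers summed to 63.2 to 83.2 and 68.2 to 72.1 RPKM, mostly LUM, with 3 above and 2 below all controls. The 8 blood and immune markers summed to 44.2 to 51.4 and 46.2 to 52.4 RPKM, with 1 above all controls, 0 below, and MS4A1 and HBB listed at 0. The 4 endothelial markers summed to 0.523 to 0.760 and 0.388 to 0.406 RPKM, with KDR listed at 0, 1 marker above all controls and 1 below. In bulk RNA, fewer cells of a type and less RNA per cell cannot be told apart. The part of these markers in the results below was not tested.

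The letters below show the HIF core in the promoters of those genes whose log2 difference had an unadjusted p under 0.05, at the match nearest upstream of an annotated start. They are RefSeq bases (GRCh38.p14), 5′ to 3′ on the strand of the gene, with ACGTG or its reverse complement CACGT in capitals. Where these overlap, the capitals span the palindrome CACGTG, which is also the E-box bound by MYC and by BHLHE40.

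BNIP3: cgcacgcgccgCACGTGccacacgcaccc
CA9: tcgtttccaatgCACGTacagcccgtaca
DDIT4: agaacgttgcttACGTGcgcccggagtcc
ERO1A: cgggcgccgcggCACGTccacaggctggg
FAM162A: cagcgcgtggcgCACGTcctacacgcccc
MXI1: gtggccaccagtCACGTaagcagagagcc
PPFIA4: ggcgctctcgtCACGTGcccggacccgag
PPP1R3C: agggatcgggtCACGTGcttgggagcaga

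The CA9 stretch lies at chr9:35673898-35673926 on the plus strand, with its core 18 bases before the RefSeq start and inside an exon of GENCODE. That of PPP1R3C lies at chr10:91633099-91633127 (minus strand), outside the gene. BNIP3 (chr10:131982040-131982068, minus strand), DDIT4 (chr10:72273787-72273815), FAM162A (chr3:122384086-122384114) and PPFIA4 (chr1:203026361-203026389) also hold theirs outside the GENCODE gene, the last 3 on the plus strand. The ERO1A stretch at chr14:52695656-52695684 (minus strand) is exonic in GENCODE, and the MXI1 stretch at chr10:110210106-110210134 (plus strand) is intronic, upstream of an inner start. RefSeq promoter windows of 250 bases before to 50 bases after a start were at hand for 29 of the 33 genes, and BNIP3L, HILPDA, NDRG1 and VEGFA were without one. ACGTG on either strand was found for 18 of 29 genes (62.1%), against 24.9% of the 27305 genes with a window and 32.6% of the 9777 of them that were tested. GCGTG on either strand was found for 19 of 29 (65.5%), against 57.9% of tested genes. Genes with several windows have more chances of a match. The genes were chosen as known HIF targets, so a higher share with the HIF core says nothing about these libraries. Over windows, ACGTG was in 21 of 39 (53.8%) against 21.4% of all 35116. The 17 tested genes with ACGTG had a median log2 difference of 0.58 and the 10 tested genes with a window but without it had 0.46, and their ranges overlapped (-0.07 to 1.15 and 0.14 to 1.36). Among genes with an unadjusted p under 0.05, 8 of 14 held ACGTG (57.1%), and among the other tested genes 9 of 13 did (69.2%). EFNA3, the gene of the highest log2 difference, had GCGTG in its window and no ACGTG.

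**Figure D1:**
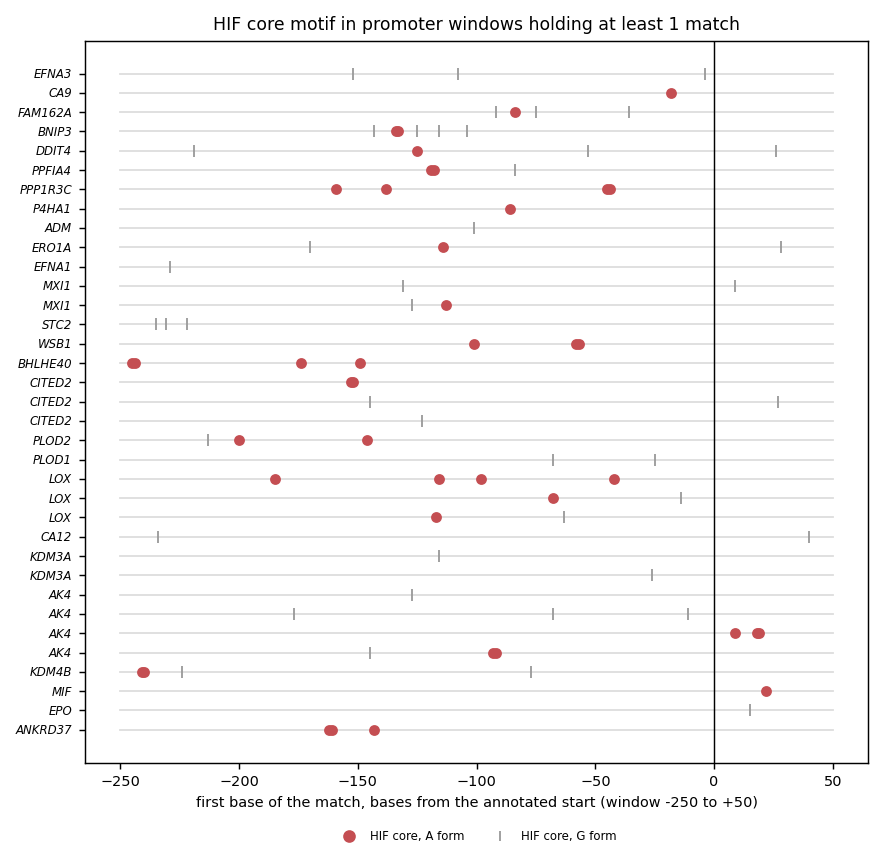
Position of the HIF core in RefSeq promoter windows of these genes, as bases from the annotated start (x axis), with 1 line per window that holds a match and genes ordered by log2 difference, the largest at the top. Red circles mark the core that begins with A and grey ticks the core that begins with G, on either strand; matches are seen along the whole order, from EFNA3 at the top down to MIF, with the untested EPO and ANKRD37 below it.

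The microRNA named by the study has its own short match, and its letters are shown so that the transcripts carrying it can be counted. The mature sequences below are RefSeq's (GRCh38.p14), with the seed, bases 2 to 8, in capitals. Both share the seed GUGCAAA, whose match in a messenger RNA is TTTGCAC.

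hsa-miR-19a-3p: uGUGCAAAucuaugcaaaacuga
hsa-miR-19b-3p: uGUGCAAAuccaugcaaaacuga

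MIR19A lies at chr13:91350939-91350961 (plus strand), and miR-19b comes from chr13:91351245-91351267 (plus strand) and chrX:134169683-134169705 (minus strand). In the longest annotated 3′ UTR, 5 of the 33 genes (15.2%) held TTTGCAC, against 13.6% of 19151 coding genes and 15.3% of the 11765 that were tested, a share near the background. They are RORA with 3 matches and STC2, FAM162A, AK4 and TMEM45A with 1 each. The matches of the last 4, with the site in capitals, are shown as examples.

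STC2: gcattgattgagacaTTTGCACa
FAM162A: ttactgttagaagtaTTTGCACc
AK4: tctttcttgtaacaaTTTGCACa
TMEM45A: gggtgatactttcatTTTGCACa

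They lie, in GRCh38, at chr5:173315251-173315273 on the minus strand for STC2 and, on the plus strand, at chr3:122410532-122410554 for FAM162A, chr1:65231250-65231272 for AK4 and chr3:100577203-100577225 for TMEM45A. The 5 genes with a match had a median log2 difference of 0.49 and the 26 tested genes without one had 0.52. These letters describe the transcripts, and whether the microRNA acts on them was not measured.

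The design sets knockdown against control. Most of the set was higher in knockdown replicates 1 and 3, by up to 2.82-fold in mean RPKM among the 31 tested genes, and 0 genes passed the test corrected over all genes. The log2 difference of log2(RPKM + 0.5), which understates changes of low genes, was above 0 for 30 of 31 genes with a median of 0.49, where 7701 of the 15408 genes tested were above 0 with a median of 0.00. The lower knockdown value exceeded the highest of 3 controls for 23 of the 31, against 14.3% of all genes tested, and the reverse held for 0, against 13.6%. At an unadjusted p under 0.05 in limma, 16 were higher, against 3.8% of all genes, and all 16 were among the 23. Leaving out knockdown replicate 1 gave 10 such genes, against 1.78% of all genes in that fit, and leaving out replicate 3 gave 8, against 0.837%. With knockdown replicate 2 put back as deposited, 7 of 31 were above 0 and the median was -0.97, where the median of all genes was -0.91. Mean RPKM was at least 1.5 times the control for 15 of 31 and at least 2 times for 5. The share of all genes tested that reached these ratios is not given here, so these counts only describe the 31. In limma with Benjamini-Hochberg adjustment, 0% of genes were called higher, and the adjusted p of the 31 ranged from 0.71 to 0.959. The 31 were longer and more abundant than the tested genes at large, with a median of 5325 exon bases against 4044 and 13.2 RPKM in control against 4.35. Correcting every library for exon length and GC gave a median of 0.56, while single genes moved both ways. CA9 went from 1.15 to 0.92, EFNA3 from 1.36 to 1.09 and ADM from 0.80 to 0.57. DDIT4 went from 0.86 to 0.64 and EFNA1 from 0.61 to 0.38. NDRG1 rose from 0.92 to 1.03, ERO1A from 0.70 to 0.85 and KDM3A from 0.16 to 0.38.

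**Figure D2:**
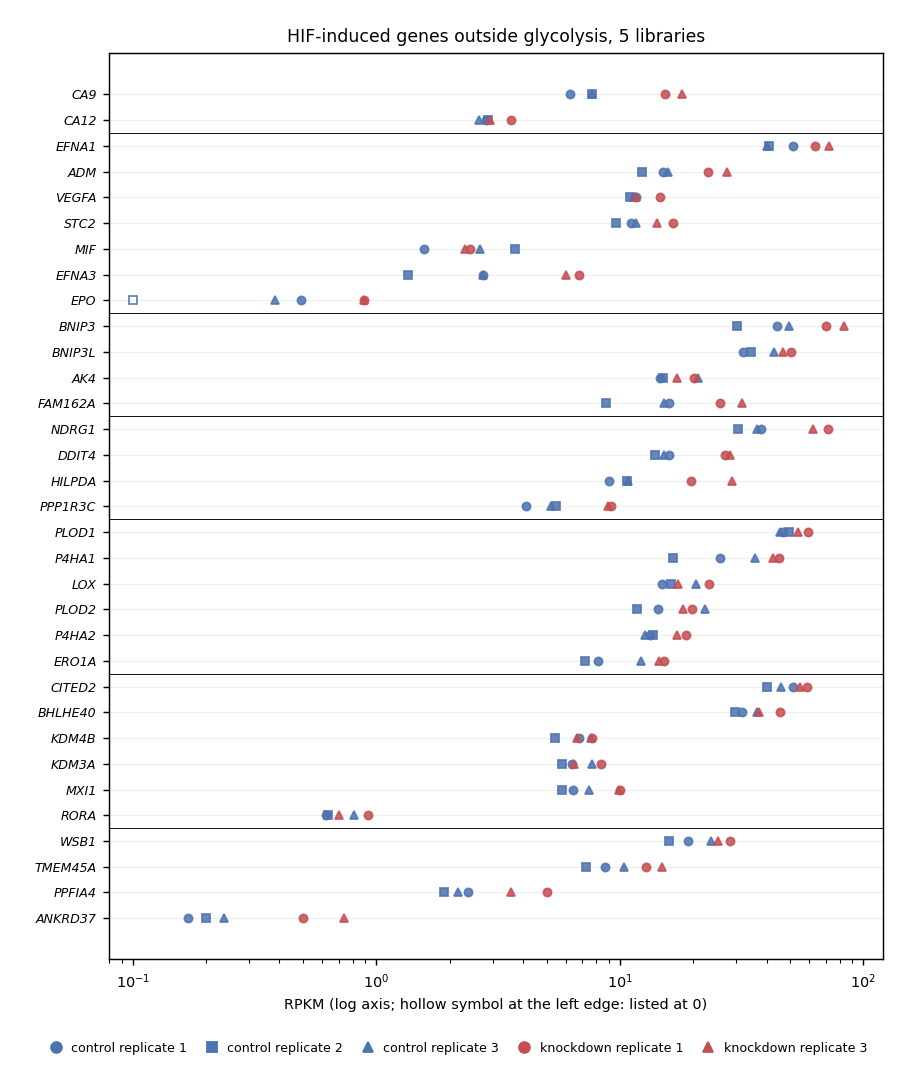
RPKM (x axis, log scale) of all 33 genes, 1 row per gene grouped by role, with 1 symbol per library (blue for control, red for knockdown; circle, square and triangle for replicates 1, 2 and 3). Red symbols lie to the right of all blue ones for 23 of the 31 tested genes, against 14.3% of all genes tested. They also do so for EPO and ANKRD37, which have few reads and were not tested. The hollow square is EPO in control replicate 2, listed at 0.

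**Figure D3:**
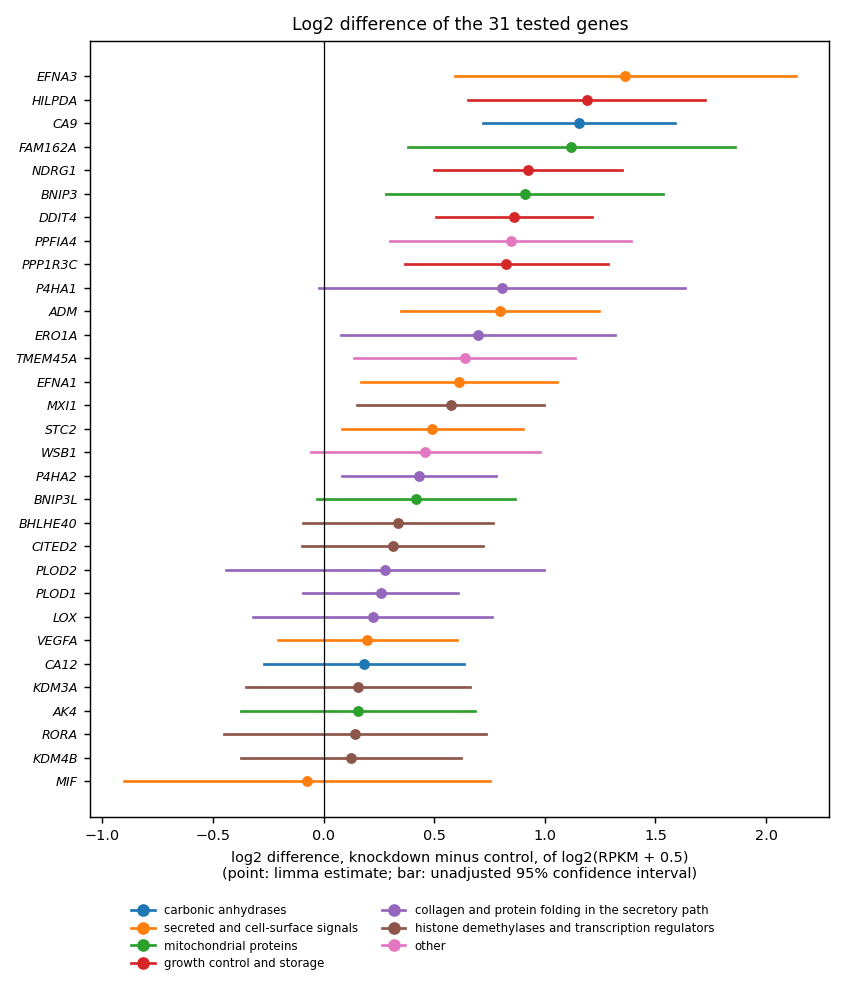
Log2 difference, knockdown minus control, of the 31 tested genes (points) with unadjusted 95% confidence intervals of limma (bars), coloured by role. The interval lies above 0 for 16 genes, from EFNA3 at 1.36 to P4HA2 at 0.43, against 3.8% of all genes tested. It spans 0 for the other 15.

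Carbonic anhydrases turn carbon dioxide into bicarbonate and acid, and the pair in this set works at the cell surface. CA9 (ENSG00000107159, chromosome 9 from 35673856 to 35681159), a widely used hypoxia marker with little expression in most normal tissue, was at 6.26, 7.68 and 7.67 RPKM in control replicates 1 to 3, against 15.3 and 18.0 RPKM in knockdown replicates 1 and 3. The groups stood apart, and the means were 7.203 ± 0.816 RPKM (SD, n = 3) and 16.6 ± 1.94 RPKM (SD, n = 2). Its log2 difference was 1.15 (SE 0.17, 95% interval 0.72 to 1.59), the smallest unadjusted p of the set, with an adjusted p of 0.71 in limma. ARHGEF39, on the opposite strand, shares 643 exon bases with it and ranged from 1.82 to 3.42 RPKM in control, with 2.43 RPKM in both knockdown libraries. CA12, the other anhydrase, was at 2.83, 2.88 and 2.65 RPKM in control and at 3.56 and 2.92 RPKM in knockdown. These groups did not overlap but nearly touched, and the log2 difference of 0.18 (SE 0.18) was 0.06 with knockdown replicate 1 left out and 0.31 with replicate 3 left out. Within a library, the log2 ratio of CA9 to CA12 was 1.02, 1.28 and 1.37 in control and 1.96 and 2.43 in knockdown. This difference of 0.97 had an exact permutation p of 0.1, two-sided, the smallest that 10 splits of 5 libraries allow, or 0.4 when adjusted over the 6 pairs compared.

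Among secreted signals and cell-surface ligands, 4 of 6 tested genes were higher at an unadjusted p under 0.05, against 3.8% of all genes tested. The best known of these signals, VEGFA, did not pass that threshold. ADM, which encodes the vessel-dilating peptide adrenomedullin, was at 15.03, 12.3 and 15.7 RPKM in control and at 23.0 and 27.5 RPKM in knockdown. Its knockdown libraries were clear of all controls, and the log2 difference was 0.80 (SE 0.18). STC2, a secreted glycoprotein that also responds to stress of the endoplasmic reticulum, was at 11.1, 9.63 and 11.7 RPKM against 16.5 and 14.2 RPKM, a log2 difference of 0.49 (SE 0.16). VEGFA, the main growth factor for blood vessels, was at 11.7, 11.0 and 11.3 RPKM in control and at 14.6 and 11.7 RPKM in knockdown. Only knockdown replicate 1 was clear of the controls, and the log2 difference of 0.20 (95% interval -0.21 to 0.60) was 0.04 with that library left out and 0.35 with the other left out.

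The ephrins EFNA1 and EFNA3 are membrane-anchored ligands of Eph receptors. EFNA3 (ENSG00000143590, chromosome 1 from 155078872 to 155087538) had the highest log2 difference of the set, 1.36 (SE 0.31). It was at 2.74, 1.34 and 2.75 RPKM in control, from 48, 5 and 103 reads, and at 6.82 and 6.03 RPKM in knockdown, from 121 and 175 reads. The lowest control value is the one with 5 reads, and without control replicate 2 the difference was 1.09. Another annotated gene, AL691442.1, shares 853 exon bases with EFNA3 on the same strand and was listed at 0 in the 5 libraries. EFNA1 was far more abundant, at 51.5, 41.0 and 40.3 RPKM in control and at 63.3 and 72.04 RPKM in knockdown. Both knockdown values exceeded the highest control, with a log2 difference of 0.61 (SE 0.18). Their log2 ratio, EFNA3 to EFNA1, was -4.01, -4.49 and -3.65 in control and -3.12 and -3.47 in knockdown, a difference of 0.75 (exact permutation p = 0.2, adjusted p = 0.4 over the 6 pairs).

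MIF, an inflammatory cytokine, was the single tested gene below 0. It was at 1.57, 3.70 and 2.67 RPKM in control and at 2.42 and 2.31 RPKM in knockdown, from 8 to 58 reads. The knockdown values sat within the control range, and the log2 difference of -0.07 (SE 0.33) was 0.16 with control replicate 2 left out and -0.35 with control replicate 1 left out. MIF shares 687 exon bases with the antisense gene MIF-AS1, at 1.04 to 2.52 RPKM, and 357 with a transcript on its own strand, so how its reads were assigned is uncertain. EPO, the red cell hormone that liver makes before birth, missed the filter. It was listed at 0.491, 0 and 0.384 RPKM in control, from 6, 0 and 10 reads, and was at 0.890 RPKM in both knockdown libraries, from 11 and 18 reads. Without a filter its log2 difference was 0.87 (SE 0.39), with an adjusted p of 0.808 in limma.

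The mitochondrial proteins BNIP3 and BNIP3L sit on the outer membrane and mark mitochondria for removal. BNIP3 was at 44.2, 30.2 and 49.3 RPKM in control and at 70.2 and 82.9 RPKM in knockdown, with means of 41.2 ± 9.92 RPKM (SD, n = 3) and 76.5 ± 8.96 RPKM (SD, n = 2). Control replicate 2 was the lowest library and both knockdown libraries were the highest, a log2 difference of 0.91 (SE 0.25). BNIP3L was at 32.0, 34.4 and 42.8 RPKM against 50.4 and 46.7 RPKM, without overlap, a difference of 0.42 (SE 0.18). It shares 330 exon bases with PNMA2 on the opposite strand, itself at 4.37 to 7.54 RPKM across the 5 libraries. The log2 ratio of BNIP3 to BNIP3L was -0.19 to 0.46 in control and 0.48 and 0.82 in knockdown, a difference of 0.49 (exact permutation p = 0.2, adjusted p = 0.4 over the 6 pairs) that was 0.32 with control replicate 2 or knockdown replicate 3 left out.

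FAM162A, an inner-membrane protein linked to hypoxic cell death, was at 15.9, 8.79 and 15.2 RPKM in control and at 25.8 and 31.7 RPKM in knockdown. The knockdown libraries were the top pair, with a log2 difference of 1.12 (SE 0.29), or 0.86 without control replicate 2. AK4, an adenylate kinase of the mitochondrial matrix, was at 14.6, 15.1 and 20.9 RPKM against 20.1 and 17.1 RPKM. Here control replicate 3 was the highest library, and the difference of 0.15 (SE 0.21) ranged from 0.04 to 0.32 with 1 library left out.

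Genes of growth control and storage had log2 differences between 0.82 and 1.19. At an unadjusted p under 0.05, 4 of 4 were higher, against 3.8% of all genes tested. The group joins growth genes with lipid and glycogen storage genes, which the plan held apart, so its count is a description only. HILPDA (ENSG00000135245, chromosome 7 from 128455849 to 128458418) coats lipid droplets and slows their breakdown. It was at 9.05, 10.7 and 10.8 RPKM in control and at 19.5 and 28.8 RPKM in knockdown, which is a log2 difference of 1.19 (SE 0.21). The controls lay close together and the knockdown libraries lay apart from each other, with a difference of 0.91 without knockdown replicate 3. NDRG1 (ENSG00000104419), a stress-induced protein that restrains growth and spread of several tumours, was at 37.9, 30.6 and 36.6 RPKM in control and at 71.6 and 62.0 RPKM in knockdown. Its means were 35.03 ± 3.92 RPKM (SD, n = 3) and 66.8 ± 6.83 RPKM (SD, n = 2), with a log2 difference of 0.92 (SE 0.17).

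DDIT4, an inhibitor of mTORC1 that slows protein synthesis under stress, had the smallest SE of the log2 difference in this group. It was at 15.9, 14.0 and 15.2 RPKM in control and at 26.9 and 28.4 RPKM in knockdown. The log2 difference of 0.86 (SE 0.14) stayed between 0.81 and 0.90 with any 1 library left out. With length and GC trends removed it was 0.64. PPP1R3C, which brings a phosphatase to glycogen and promotes glycogen storage, was at 4.10, 5.49 and 5.23 RPKM against 9.21 and 8.94 RPKM. The groups were well apart, with a difference of 0.82 (SE 0.18).

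Of the collagen and folding enzymes, 2 of 6 were higher at an unadjusted p under 0.05, against 3.8% of all genes tested. The median log2 difference was 0.35. The plan held ERO1A apart from the collagen genes, so these values are a description only. P4HA1 and P4HA2 are catalytic subunits of collagen prolyl 4-hydroxylase, PLOD1 and PLOD2 hydroxylate collagen lysines, LOX crosslinks collagen outside the cell, and ERO1A passes electrons to form disulfide bonds. P4HA1 was at 25.7, 16.6 and 36.0 RPKM in control and at 45.1 and 42.6 RPKM in knockdown. The controls were widely spread, and the log2 difference of 0.80 (SE 0.33) was 0.52 without control replicate 2. P4HA2 was at 13.3, 13.6 and 12.7 RPKM against 18.8 and 17.2 RPKM, a smaller difference of 0.43 with a smaller error (SE 0.14). The log2 ratio of P4HA1 to P4HA2 was 0.27 to 1.47 in control and 1.25 and 1.28 in knockdown, so the ratios overlapped (difference 0.37, exact permutation p = 0.6). That difference was 0.065 with control replicate 2 left out and 0.66 with control replicate 3 left out.

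ERO1A was at 8.15, 7.21 and 12.2 RPKM in control and at 15.2 and 14.5 RPKM in knockdown, a log2 difference of 0.70 (SE 0.25). PLOD1 had the highest control mean of the set, 47.3 ± 2.03 RPKM (SD, n = 3), within the spread of CITED2, EFNA1 and BNIP3. It was at 46.9, 49.5 and 45.5 RPKM against 59.2 and 54.1 RPKM, without overlap and with a difference of 0.26 (SE 0.14). PLOD2 was at 14.3, 11.8 and 22.4 RPKM against 19.9 and 18.2 RPKM, and LOX at 14.9, 16.3 and 20.6 RPKM against 23.1 and 17.3 RPKM. In both of these genes control replicate 3 lay above 1 or both knockdown libraries, and the differences were 0.28 (SE 0.29) and 0.22 (SE 0.21). That of PLOD2 was 0.09 with control replicate 2 left out and 0.53 with control replicate 3 left out, and that of LOX 0.02 and 0.42 with knockdown replicates 1 and 3 left out in turn. The ratio of PLOD1 to PLOD2 differed by -0.02 (exact permutation p = 1.0).

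Histone demethylases and transcription regulators had the lowest median of the groups, 0.23 over 6 genes. The plan held these roles apart, so the rank of the joined group is a description only. Against 3.8% of all genes tested, 1 of the 6 was higher at an unadjusted p under 0.05. That gene was MXI1, which competes with MYC for the partner MAX. It was at 6.41, 5.79 and 7.45 RPKM in control and at 10.02 and 9.90 RPKM in knockdown, a log2 difference of 0.58 (SE 0.17). BHLHE40, a repressor of the circadian clock, was at 31.7, 29.7 and 36.4 RPKM against 45.3 and 37.3 RPKM, and CITED2, which competes with HIF for its coactivators, at 51.3, 40.3 and 45.7 RPKM against 58.5 and 54.9 RPKM. Both were without overlap, by a small margin, with differences of 0.33 (SE 0.17) and 0.31 (SE 0.16). That of BHLHE40 was 0.20 without knockdown replicate 1.

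KDM3A and KDM4B, oxygen-dependent enzymes that remove methyl groups from histone H3, overlapped between groups. KDM3A was at 6.35, 5.77 and 7.67 RPKM in control and at 8.34 and 6.48 RPKM in knockdown, with a log2 difference of 0.16 (95% interval -0.35 to 0.66). KDM4B was at 6.82, 5.40 and 7.59 RPKM against 7.69 and 6.68 RPKM, with a difference of 0.12 (95% interval -0.37 to 0.62). These values turned to -0.01 for KDM3A without knockdown replicate 1 and to -0.0049 for KDM4B without control replicate 2. Their ratio differed by 0.03 (exact permutation p = 0.7). RORA, a nuclear receptor, was low at 0.620, 0.632 and 0.808 RPKM against 0.922 and 0.703 RPKM, with a difference of 0.14 (SE 0.24) that was 0.02 without knockdown replicate 1.

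Of the remaining 4 genes, PPFIA4, a liprin scaffold protein, was at 2.38, 1.90 and 2.15 RPKM in control and at 5.02 and 3.57 RPKM in knockdown, a log2 difference of 0.85 (SE 0.22). TMEM45A, a membrane protein, was at 8.67, 7.26 and 10.4 RPKM against 12.8 and 14.9 RPKM, a difference of 0.64 (SE 0.20). WSB1, part of a ubiquitin ligase, was at 19.1, 15.9 and 23.6 RPKM against 28.3 and 25.2 RPKM, a difference of 0.46 (SE 0.21). In these 3 genes both knockdown libraries were the highest of the 5. ANKRD37, an ankyrin-repeat protein, missed the filter with 4, 1 and 12 reads in control and 12 and 29 in knockdown. Its values were 0.169, 0.199 and 0.237 RPKM against 0.5003 and 0.740 RPKM, and its exons share 909 bases with UFSP2 on the opposite strand, itself at 0.923 to 2.38 RPKM across the 5 libraries.

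**Figure D4:**
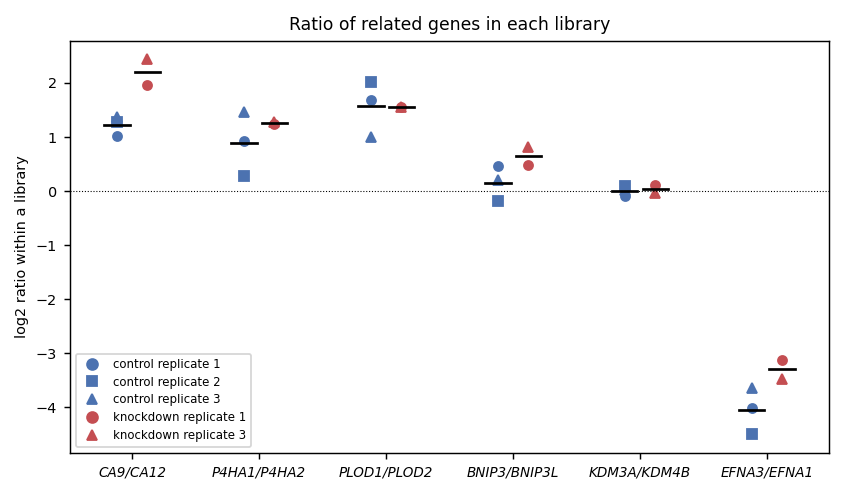
Log2 ratio of RPKM + 0.5 between 2 related genes within each library (y axis) for 6 pairs, with 1 symbol per library (blue control, red knockdown) and black lines for group means. The ratio of CA9 to CA12 is 1.02 to 1.37 in control and 1.96 to 2.43 in knockdown, while PLOD1 to PLOD2 and KDM3A to KDM4B overlap.

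Transcripts of the machinery that controls HIF had a median near that of all genes. Of 12 tested genes of HIF subunits and oxygen sensing, 5 were above 0 and the median was -0.04. At an unadjusted p under 0.05, 1 of the 12 was higher, against 3.8% of all genes tested. HIF1A was at 74.8, 64.3 and 111 RPKM in control and at 71.2 and 54.5 RPKM in knockdown, a log2 difference of -0.38 (SE 0.28). EPAS1, the other main alpha subunit, was at 40.5, 45.6 and 45.5 RPKM against 36.9 and 27.9 RPKM, a difference of -0.44 (SE 0.18), with both knockdown libraries below all controls. EGLN3, a hydroxylase that is itself a HIF target, was the highest of this list at 0.53 (SE 0.20), from 10.5, 8.99 and 13.1 RPKM to 15.1 and 16.4 RPKM. EGLN1, the main oxygen sensor, was at 0.27 (SE 0.18), and RBX1, a part of the VHL ligase, at 0.35 (SE 0.21).

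Other HIF targets, also listed with earlier results of these data known, were mostly higher in knockdown. Of 27 tested HIF-linked genes outside the set, 24 were above 0 with a median of 0.32. At an unadjusted p under 0.05, 8 of the 27 were higher, against 3.8% of all genes tested. The median was 0.15 without control replicate 2. LOXL2, a crosslinking enzyme related to LOX, was at 3.30, 3.60 and 4.52 RPKM against 9.73 and 7.91 RPKM, a log2 difference of 1.12 (SE 0.20), and INSIG2, which restrains cholesterol synthesis, was at 0.86 (SE 0.20). ZNF395, a zinc finger protein, was at 0.71 (SE 0.17), and ANGPTL4, an inhibitor of lipoprotein lipase, at 1.40 (SE 0.41). Glycolysis and glucose uptake genes were above 0 for 17 of 20, with a median of 0.44. Of the 20, 10 were higher at an unadjusted p under 0.05, against 3.8% of all genes tested. They were led by ENO2 at 1.01 (SE 0.17), ALDOC, PFKFB4 and SLC2A1. The 13 tested genes of the ATF4 amino acid response, a stress pathway that can also induce DDIT4 and STC2, were above 0 for 7 and below for 6, with a median of 0.05. In that list PSAT1, of serine synthesis, was at -0.52 (SE 0.14), SLC7A11, a cystine transporter, at -0.53 (SE 0.25), ATF3, a stress-induced transcription factor, at 0.60 (SE 0.25) and XPOT, which exports tRNA from the nucleus, at -0.43 (SE 0.27). None of the genes named from these lists passed over all genes in limma, at an adjusted p of 0.71 to 0.749.

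**Figure D5:**
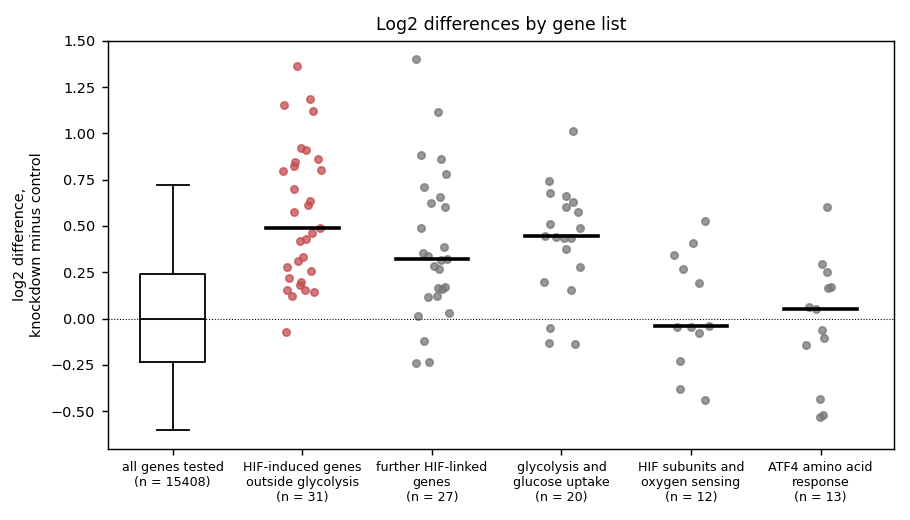
Log2 difference, knockdown minus control (y axis), of single genes (points) by list, with black lines for list medians; the box shows the middle of all 15408 genes tested, from the lower to the upper quartile, with whiskers from the 5th to the 95th percentile. The medians are 0.49 for the HIF-induced genes outside glycolysis, 0.32 and 0.44 for the other HIF-linked and glycolytic genes, -0.04 for HIF subunits and oxygen sensing and 0.05 for the ATF4 response.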

How the data were processed

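The authors deposited 1 table of RPKM values for 6 libraries. HISAT2 and GRCh38 are named in the submitters' processing notes, and the sources used here do not state the read counter, annotation, strand setting or filters. All 58676 gene IDs matched GENCODE release 29. In 5 libraries, RPKM times summed exon length gave whole multiples of 1 read for 100% of values (tolerance 0.002), which gave reads and depths. Columns were matched to samples by title. The fit compared 3 control with 2 knockdown libraries with limma 3.58.1 in R 4.3.3 (eBayes with trend, two-sided) on log2(RPKM + 0.5). A gene was tested if 3 of the 5 libraries reached 0.5 RPKM, and p-values were adjusted by Benjamini-Hochberg over 15408 genes. The code was tested on simulated data. The members, lists and tests were chosen with earlier results of these data known. Some role groups join roles that the plan held apart. Per-library values were planned for members at an unadjusted p under 0.05, the 10 of largest difference, those below 0 and those under the filter, and the remaining members were added after their values were seen. From each list the 4 genes of smallest unadjusted p are named, and HIF1A was added after its values were seen. Ratios of 6 pairs were tested by exact permutation. Alternatives covered the pseudocount, filter, scaling, variance trend, limma voom on recovered reads, length and GC, the replicate number, knockdown replicate 2 and each library.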

Additional observations from a re-analysis of the deposited data

How the results depend on the processing

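Over 17 alternatives on the 5 libraries, 28 of the 31 tested genes kept their direction. The exceptions were KDM3A (leave-one-out range -0.015 to 0.33), KDM4B (-0.0049 to 0.22) and MIF (-0.35 to 0.16). MIF was also at 0.014 with limma voom and at 0.31 with voom and sample weights. In the replicate block, control replicate 2 has no partner, so the log2 differences equal those without that library. The block values of -0.0049 for KDM4B and 0.16 for MIF are thus no separate check. With 1 library left out, the number of members at an unadjusted p under 0.05 ranged from 8 to 19, and the share of all genes from 0.837% to 4.86%. The list medians then ranged from -0.039 to 0.11 (HIF subunits and oxygen sensing), 0.42 to 0.48 (glycolysis), 0.15 to 0.38 (other HIF-linked genes) and -0.11 to 0.12 (ATF4). The pair ratios reversed for PLOD1 to PLOD2 (-0.30 to 0.21, and 0.036 without control replicate 1) and KDM3A to KDM4B (-0.042 to 0.11, and -0.016 without control replicate 1). With length and GC trends removed, the medians were 0.096 (HIF subunits), 0.48 (glycolysis) and -0.19 (ATF4). The cause was not tested. Over the whole table limma called 0 genes, 40 with the replicate block and 4 with voom and sample weights, and 0 members in each. The block's median of 0.15 for other HIF-linked genes is likewise the value without control replicate 2. Deviations of libraries with the same number correlated at -0.17 and 0.02. Deviations of 2 knockdown libraries from their mean mirror each other, and control replicate 1 gave -0.17 with one and 0.17 with the other. These values therefore cannot decide whether the numbers mark pairs. All 6 columns as deposited gave -0.97 for the members' median, with 7 above 0 and 0 at an unadjusted p under 0.05, and medians of -1.43 (HIF subunits), -1.44 (glycolysis), -0.95 (other HIF-linked) and -1.08 (ATF4). Single genes were not refitted there, since knockdown replicate 2 does not follow the gene IDs. Low read numbers in control replicate 2 limit EFNA3, MIF, EPO and ANKRD37 most.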

Other observations

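As deposited, knockdown replicate 2, left out of the main comparison, lists 25 of the 33 genes at 0 (75.8%), against 78.6% of all tested genes. Its highest value in a row of the set is 58.3, in the row of CA9.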
